A study of Mus musculus with 9 samples.

Results

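The chaperone genes described here are the 78 protein-coding genes of a mouse testis expression table whose symbols belong to the HSP70 (Hspa, 12 genes), small heat shock protein (Hspb, 8), HSP90 (3), HSP105 (Hsph, 1), chaperonin (Hspd, Hspe, 1 each, and Cct, 9) and J-protein families (Dnaja, 4, Dnajb, 12, and Dnajc, 27). They were taken by symbol alone, with no use of their values, from 38674 genes in all, of which 21019 were protein coding. The study deleted part of Profilin 3 (Pfn3), a testis gene for an actin monomer-binding protein, by CRISPR/Cas9 in mice and asked whether its loss alters testicular gene expression. RNA from whole testes of C57BL/6 males, with the tunica albuginea taken off, was sequenced by QuantSeq, a method that reads the 3′ ends of polyadenylated transcripts. There were 3 groups of 3 samples, wild-type Pfn3+/+ (WT), heterozygous Pfn3+/- (Het) and homozygous Pfn3-/- (KO) males. The Pfn3 deletion was their only stated difference. Deletions of several sizes were made in separate lines by the study, and the labels give neither the line nor the age of the animals behind these libraries. The samples of a genotype are numbered in the labels without a statement on litters or preparations, so the p-values below measure the spread between these samples.

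Chaperones hold, fold or refold other proteins. HSP70 proteins bind exposed stretches of a client in cycles of ATP use, J proteins bring the client and trigger ATP hydrolysis, and nucleotide exchange factors such as the HSP110 proteins release it. HSP90 acts on near-folded clients, small heat shock proteins hold unfolded ones, and the CCT ring encloses and folds actin and tubulin. Male germ cells use their own versions of many of these proteins, among them HSPA2 in meiotic cells and HSPA1L in spermatids, and the stress-inducible members are switched on by heat shock factors that bind repeats of the motif GAA.

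The counts on genes totalled 3375546 to 4287335 per sample, and 3 counts, taken as the limit of detection for counting error only, corresponded to 2.58 to 3.71 normalized counts, the gene counts divided by the size factor of the sample. The chaperone genes together took 1.52% to 2.02% of all normalized counts. Pfn3 was measured at 592, 383 and 373 in WT, 136, 339 and 326 in Het and 74.7, 215 and 279 in KO. The KO samples lay below all WT samples and overlapped the Het samples. The deletions lie in the coding sequence, and where the reads fell relative to them was not examined. These values were therefore not used to check the genotypes. Spermatid markers of the fixed lists were present at high levels in every sample, and the 5 epididymis markers summed to 0 to 8.69, with Lcn5, Lcn8 and Adam7 at 0 in all 9 samples. 3′ counts were not set against transcript length or the share of ends that the annotation holds. Levels are therefore compared between samples, and the order of genes by counts given below is not an order of transcript levels.

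Of the 78 genes, 75 had enough signal to be tested in each comparison, meaning that 3 or more of the 6 samples compared reached a value of 10. The other 3 were Dnajc22, at 0 to 8.38, Hspb2, at 0 to 10.6, and Hspb3, at 0 in all 9 samples, where 3 counts would have given 2.58 to 3.71. The 12 chaperone genes with the most counts over the 9 samples were Hsp90aa1, Dnajb3, Hspa4l, Hspb9, Cct7, Dnajb6, Hspa2, Dnajb8, Cct3, Hsp90ab1, Dnajc2 and Hspa1l. Of these, 7 (Hsp90aa1, Dnajb3, Hspa4l, Hspb9, Hspa2, Dnajb8 and Hspa1l) are on the list of germ cell enriched chaperones used below. That list holds 14 of the 78 genes and was drawn up with earlier results of these samples known. Hsp90aa1, the inducible HSP90 that germ cells also make constitutively, had the highest counts, not set against length, at 19011, 13036 and 10739 in WT, 7290.2, 11408 and 9922 in Het and 12438, 8384 and 10952 in KO. Dnajb3, a J protein of spermatids, followed with 4531 to 9372.

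The promoters of several of these genes carry the known stress motifs of the family. RefSeq promoter windows on GRCm38.p6, running from 250 bases before to 50 bases after an annotated start, were matched by symbol for 63 of the 78 genes (82 windows). The heat shock element, GAANNTTC followed by NNGAA and searched on both strands, was held by 0.603% of all 32851 mouse windows, against 6 of these 82 (7.32%), which belong to 4 of the 63 genes, Hsph1, Hspd1, Hspe1 and Dnajb6. They are shown because Hsph1 had the lowest p-value of the KO against WT comparison among these genes and because Hspd1 and Hspe1 share the same element between their starts. Capitals mark the GAA and TTC letters of the motif, and each sequence reads along the gene's own strand.
Hsph1, chr5:149636280-149636308, minus strand, match 16 to 28 bases after a start: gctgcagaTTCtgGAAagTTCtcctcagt
Hspe1, chr1:55088056-55088084, plus strand, match ending 72 bases before a start: ccgTTCtaGAAccTTCcgGAAggccccgc
Hspd1, chr1:55088056-55088084, minus strand, match ending 132 bases before a start: gcggggccTTCcgGAAggTTCtaGAAcgg
Dnajb6, chr5:29735844-29735872, plus strand, match ending 34 bases before a start: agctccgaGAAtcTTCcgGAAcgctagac

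The Hspe1 and Hspd1 lines are the same 29 bases read on opposite strands, since these partner genes of the mitochondrial chaperonin start head to head. The shorter core GAANNTTC, which lies inside the full element, was found for 16 of the 63 genes (25.4%), against 9.04% of all genes with a window. Among 12 stress-inducible chaperones, 10 had a window and 8 of these held the core, namely Hspa1a, Hspa1b, Hsph1, Hspb1, Hspd1, Hspe1, Dnaja1 and Hspb8. Of the germ cell enriched list, 3 of 12 genes with a window held it (Dnajc5g, Cct8l1 and Dnaja4). The ER stress element, CCAAT and CCACG with 9 bases of any kind between them, was present in 0.119% of all windows and in those of 3 chaperone genes, all among the 7 genes of the endoplasmic reticulum list with a window. These were Hspa5 (BiP), Hsp90b1 (GRP94) and Dnajc3 (p58IPK), the textbook targets of the unfolded protein response, and in the lines below capitals mark its CCAAT and CCACG letters.
Hspa5, chr2:34772020-34772048, plus strand: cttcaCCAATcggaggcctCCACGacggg
Hsp90b1, chr10:86705633-86705661, minus strand: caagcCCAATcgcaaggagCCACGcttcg
Dnajc3, chr14:118937822-118937850, plus strand: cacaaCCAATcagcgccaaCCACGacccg

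The cAMP response element TGACGTCA was in 1.79% of all windows and in that of 1 chaperone gene, Dnajc27. A match is a description of letters and not of binding, which was not measured here.

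In the KO testes, the chaperones of a germ cell enriched list had lower values than in WT, none past the adjusted threshold, while the stress-inducible and endoplasmic reticulum chaperones had no common direction. With limma and the cutoffs of the study, a log2 fold change beyond 1.5 in either direction at an adjusted p below 0.05, 0 of 75 chaperone genes were called, against 5 of all 14223 genes tested (0.0352%). At an unadjusted limma p under 0.05, 5 chaperone genes were lower in KO and 0 higher, which is 6.67% of the 75, against 5.03% of all genes lower and 3.04% higher. Without KO replicate 2 there were 2 lower and 0 higher, without WT replicate 1 there were 2 lower and 1 higher, and without KO replicate 3 there were 3 lower and 0 higher. The count thus rests in part on these samples. The count tests on the recovered whole counts gave 3 such genes with edgeR (0 called, against 0.0352% of all genes called and 7.57% at an unadjusted p under 0.05) and 4 with DESeq2 (1 called, against 0.682% and 7.31% of all genes).

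Hsph1 (HSP105, a nucleotide exchange factor for HSP70 that is itself stress inducible, ENSMUSG00000029657, chr5:149614287-149636376) showed the largest difference of the 5. Its normalized counts were 125, 169.8 and 159 in WT, 34.01, 174 and 31.7 in Het and 50.7, 19.3 and 41.1 in KO. All 3 KO samples lay below all 3 WT samples, and 2 of the 3 Het samples lay in the range of the KO samples while Het replicate 2 lay above every WT sample. The log2 fold change of KO against WT was -2.09 (SE 0.39, limma, Benjamini-Hochberg adjusted p = 0.402), and it stayed between -2.37 and -1.70 whichever sample was left out. The DESeq2 Wald test, which called 0.682% of all genes tested, called Hsph1 with a log2 fold change of -2.01 (SE 0.45, adjusted p = 0.00202), while the adjusted p ran up to 0.533 under the other settings with all samples and no block, and up to 0.788 with a sample left out. In Het against WT the difference was -1.37 (SE 0.67, limma adjusted p = 0.779). None of the 50-base stretches in the last 300 bases of its annotated transcripts occurs in another annotated gene.

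The next genes in order of p were Dnajb8, Dnajb3, Cct7 and Dnajc18. Dnajb8 (a testis J protein that keeps aggregation-prone proteins soluble, ENSMUSG00000048206, chr6:88222268-88254415) had normalized counts of 4089, 2698 and 2456 in WT, 1144, 2500.3 and 1973 in Het and 1921, 1049.7 and 1795 in KO. Each KO sample lay below each WT sample, with a log2 fold change of -0.97 (SE 0.31, limma, adjusted p = 0.61), and the Het samples overlapped both groups. For Dnajb3 (ENSMUSG00000081984, chr1:88204732-88205782) the values were 9372, 6972 and 6342 in WT, 6090.3, 5908 and 6305 in Het and 5455, 4531 and 5719 in KO. The groups were ordered WT, Het, KO with no overlap, by a log2 fold change of -0.52 from WT to KO (SE 0.20, limma adjusted p = 0.61). Its 3′ end is overlapped by 8 Ugt1a genes on the other strand, and the counting is not stated to use strand.

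Cct7, the eta subunit of the CCT ring (ENSMUSG00000030007, chr6:85451514-85468475), was measured at 4331, 3554 and 3411 in WT, 2186, 3443 and 2848 in Het and 2883, 2775 and 2900.1 in KO. The KO samples lay within a narrow range under all WT samples (log2 fold change -0.39, SE 0.15, limma adjusted p = 0.61), and the lowest single value belonged to a Het sample. Dnajc18, a J protein of the endoplasmic reticulum membrane (ENSMUSG00000024350, chr18:35671103-35708414), was measured at 672, 651 and 660.4 in WT, 413, 605 and 579 in Het and 526, 372 and 510.3 in KO. Here the WT samples were nearly equal and each Het and each KO sample lay below them (KO against WT -0.51, SE 0.20, limma adjusted p = 0.61). None of these 4 passed the adjusted threshold under any setting tried.

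**Figure D1:**
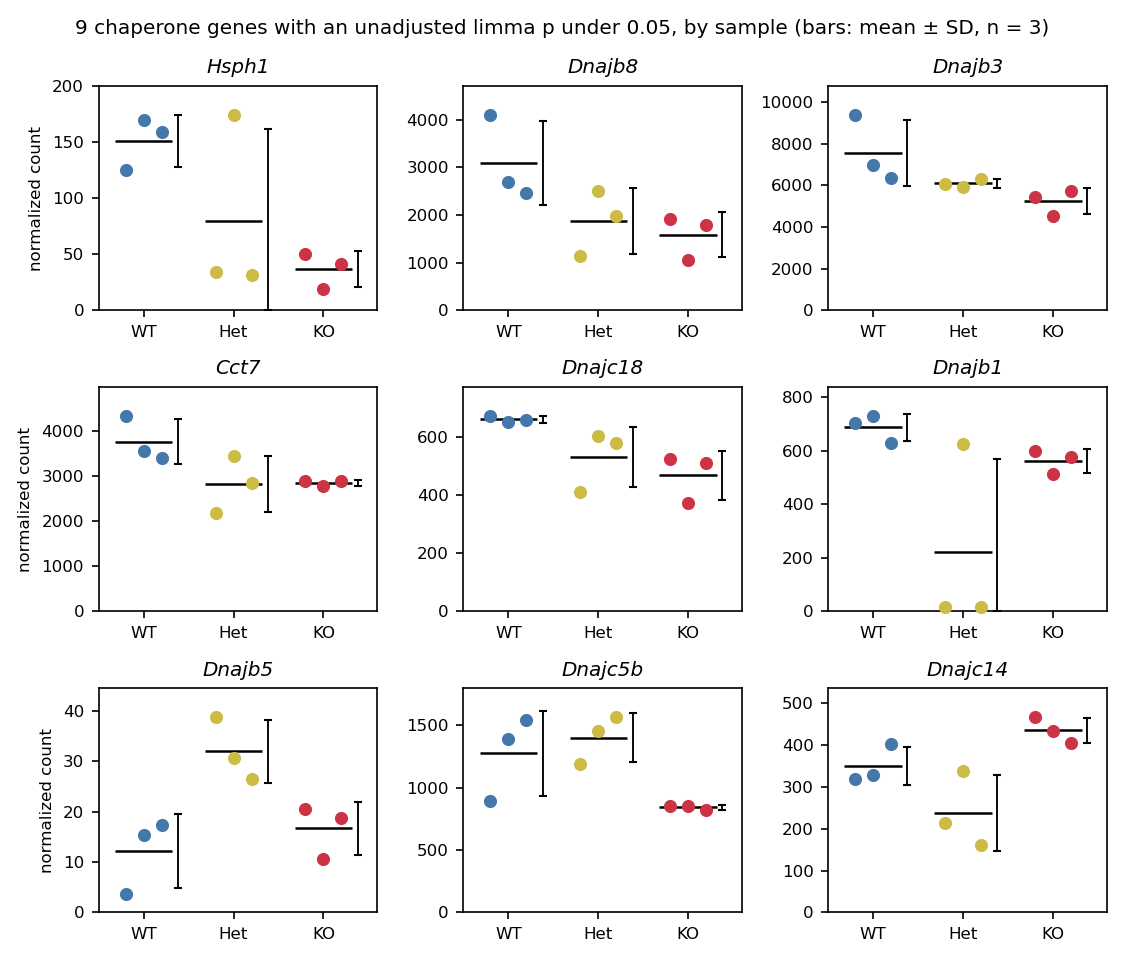
Normalized counts (linear axes from 0) of Hsph1, Dnajb8, Dnajb3, Cct7, Dnajc18, Dnajb5, Dnajb1, Dnajc5b and Dnajc14, a point per sample for WT, Het and KO, with the mean as a line and the SD (n = 3) as a bar beside it, cut at 0 where it would fall below. Hsph1 is at 19.3 to 50.7 in KO against 125 to 169.8 in WT, and Dnajb1 is near 0 in 2 of 3 Het samples only.

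Counted by overlap, each KO sample lay below each WT sample for 15 of the 75 genes (20%), against 10.5% of all genes, and above for 3 genes (4.0%), against 9.41% of all genes. The 15 were the 5 above with Cct6b, Cct8l1, Dnajb1, Dnajb2, Dnajb6, Dnajc4, Dnajc5b, Dnajc17, Dnajc30 and Hspa1l, and the 3 were Dnajb4, Dnajc13 and Dnajc14. Dnajb2, a J protein with ubiquitin-binding motifs, was at 110.2, 84.9 and 107 in WT, 59.5, 82.9 and 67.7 in Het and 80.7, 66.8 and 54.5 in KO, and Dnajc4 was at 322, 343 and 250.1 in WT, 169, 275 and 220.1 in Het and 246, 135 and 216 in KO. The median log2 fold change of the 75 genes was -0.12, against 0.02 over all genes, and 32 were above 0 and 43 below, where 51.4% of all genes were above. Among genes with a mean of at least 50, the median was -0.16 for 63 chaperone genes and -0.04 for all genes.

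The germ cell enriched list held 14 genes, and all 14 had a log2 fold change below 0 in KO against WT, with a median of -0.49. This list was drawn up with earlier results of these samples known, so its direction is a description. The values were -1.63 for Hspa2, -1.06 for Dnaja4, -0.97 for Dnajb8, -0.63 for Hspa1l, -0.58 for Cct8l1, -0.56 for Dnajc5b and -0.52 for Dnajb3. For the others they were -0.47 for Dnajb13, a protein of the axonemal radial spokes, -0.46 for Hspb9 and Dnajb7, -0.41 for Hsp90aa1, -0.36 for Cct6b, -0.32 for Hspa4l and -0.05 for Dnajc5g. Of the 14, 2, Dnajb3 and Dnajb8, were among the genes at an unadjusted limma p under 0.05, where 5.03% of all genes were lower, and 6 did not overlap between KO and WT, where 10.5% of all genes lay below. The median stayed between -0.63 and -0.32 with a sample left out, with -0.32 reached without KO replicate 2, and 13 or 14 genes were below 0 under each setting.

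By sample, the median deviation of the 14 genes from their WT mean on the log2 scale was 0.28, -0.09 and -0.14 in WT, -0.42, -0.23 and -0.13 in Het and -0.27, -0.74 and -0.29 in KO. All 3 KO samples were below all 3 WT samples, Het replicate 3 was level with WT replicate 3, and KO replicate 2 was the lowest. The 4 elongating spermatid markers (Tnp1, Tnp2, Prm1, Prm2) deviated by 0.07, -0.0023 and -0.06 in WT, -0.56, -0.21 and -0.23 in Het and -0.44, -1.06 and -0.31 in KO, and their summed normalized counts ran from 233289 to 249362 in WT, from 179063 to 214894 in Het and from 123388 to 199672 in KO. The 6 round spermatid markers (Acrv1, Spaca1, Tssk1, Tssk2, Catsper3, Spata16) summed to 7322 to 9124 in WT, 5618 to 7448 in Het and 3813 to 6251 in KO. The 8 spermatocyte markers summed to 5064 to 6384 in WT, 4815 to 7610 in Het and 7328 to 8232 in KO. The spermatid markers stood lowest in the same KO sample as the germ cell chaperones. The summed markers of Sertoli cells (1637 to 2537 over the 9 samples, 4 genes), Leydig cells (1777 to 4447, 5 genes), macrophages (139.9 to 286, 5 genes), erythrocytes (853 to 1391, 5 genes) and spermatogonia (60.5 to 102.7, 4 genes) overlapped between the genotypes. Their part in the chaperone values was not tested, and in whole testis fewer cells of a type and less RNA per cell cannot be told apart.

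**Figure D2:**
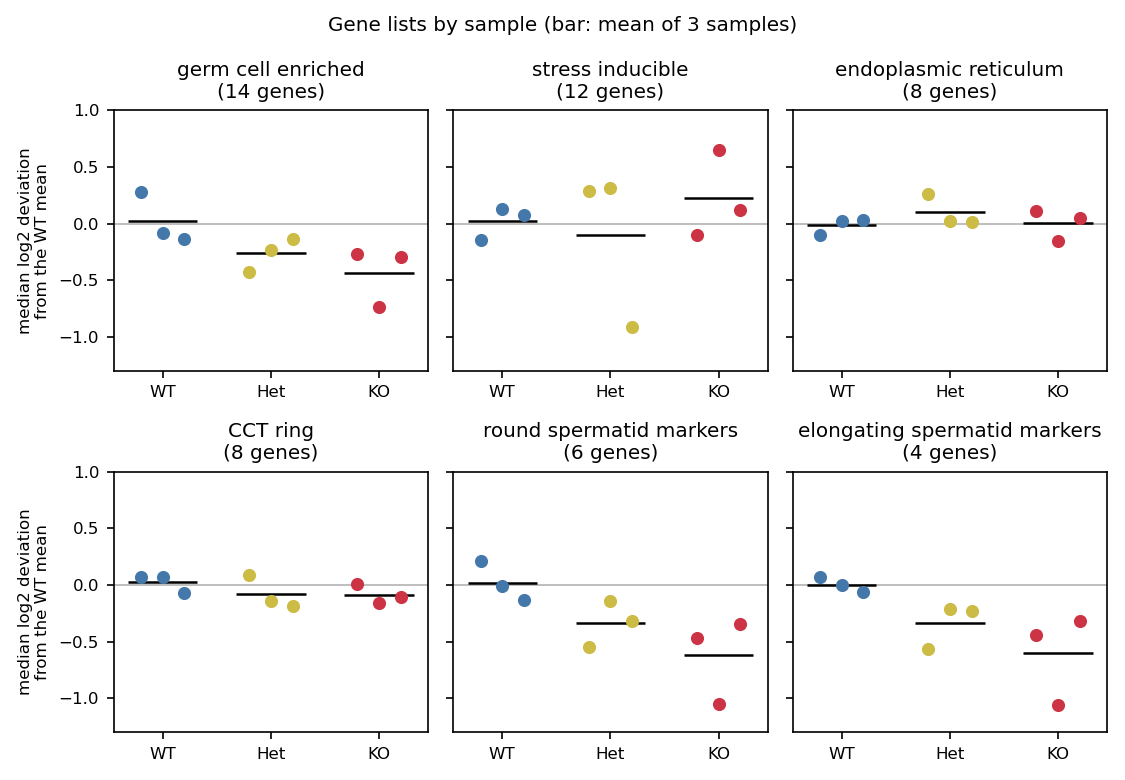
Median deviation of each gene list from its WT mean (log2 scale, y axis) in each WT, Het and KO sample (points), with the mean of 3 samples as a bar. The germ cell enriched chaperones and both spermatid marker lists are lowest in KO replicate 2, at -0.74, -1.05 and -1.06, while the endoplasmic reticulum and CCT lists stay within 0.26 of 0.

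The 2 largest differences of the list came from a few samples. Hspa2, the HSP70 that pachytene spermatocytes need (ENSMUSG00000059970, chr12:76404176-76406938), was at 2476, 3191 and 3416 in WT, 98.3, 2979.8 and 3061 in Het and 2939, 102 and 3038 in KO. Het replicate 1 and KO replicate 2 stood far below the others, and the other 7 samples lay between 2476 and 3416 with the genotypes mixed. Dnaja4 was at 248, 1114 and 1054 in WT, 252, 1064 and 1159 in Het and 825, 159.6 and 244 in KO, low in WT replicate 1, Het replicate 1 and KO replicates 2 and 3. Its 3′ end lies opposite Wdr61 on the other strand.

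The rest of the list had smaller and more even differences. Hspa1l, the HSP70 of spermatids, was at 2185, 1316 and 1312 in WT, 1394, 1308 and 1542 in Het and 956, 824 and 1291 in KO. Hspb9, a small heat shock protein of the testis, was at 5258, 3997 and 3035 in WT, 2449.9, 2998 and 2923 in Het and 3231, 2367 and 3187 in KO, and its Het samples lay below all WT samples while KO replicate 1 and KO replicate 3 overlapped WT replicate 3. Hspa4l, the HSP110 protein of germ cells, was at 4924, 3749 and 4031 in WT, 3343, 3712 and 3699.7 in Het and 3908, 2625 and 3699 in KO. Cct6b, the testis form of the zeta subunit of the CCT ring, was at 1033, 1010.0 and 1017 in WT, 769, 833 and 886 in Het and 873, 646 and 887 in KO, with every Het and KO sample below the WT samples, and its widely expressed counterpart Cct6a was at 539, 692 and 613 in WT, 702, 604 and 669 in Het and 669, 689 and 733 in KO, with the WT samples among the others. The log2 fold change of KO against WT was -0.36 (SE 0.19, limma adjusted p = 0.616) for Cct6b and 0.19 (SE 0.17, limma adjusted p = 0.681) for Cct6a, and the difference between these was not tested.

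The 12 stress-inducible chaperones had no shared direction. In KO against WT, 8 were above 0 and 4 below, with a median of 0.18 (-0.01 without KO replicate 2 and 0.31 without KO replicate 1), and apart from Hsph1 none had an unadjusted limma p under 0.05. The values were 2.28 for Hspb1, 1.06 for Hspa1b, 0.33 for Dnaja1, 0.31 for Dnajb4, 0.28 for Hspa1a, 0.22 for Hspa8, 0.13 for Hspd1, 0.10 for Hspb8, -0.02 for Hspe1, -0.29 for Dnajb1, -0.41 for Hsp90aa1 and -2.09 for Hsph1. The heat-inducible HSP70 genes had low counts in every sample, with Hspa1a at 18.6, 15.4 and 11.6 in WT, 19.8, 17.7 and 11.6 in Het and 18.04, 27.1 and 12.5 in KO and Hspa1b at 4.95, 12.5 and 6.76 in WT, 24.6, 10.2 and 11.6 in Het and 10.3, 28.1 and 16.1 in KO. Both KO and Het samples overlapped WT for these genes.

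Among the 8 tested chaperones of the endoplasmic reticulum, 5 were above 0 and 3 below, with a median of 0.02 (-0.12 to 0.09 with a sample left out). Hspa5, the BiP protein whose promoter carries the element shown earlier, was at 594, 625 and 690.4 in WT, 229, 544 and 467 in Het and 663, 539 and 518 in KO. The KO samples overlapped WT, and the 3 Het samples lay below all of WT (Het against WT -0.71, SE 0.35, limma adjusted p = 0.779). Hsp90b1 was at 1137, 619 and 684 in WT, 490.4, 1575 and 563 in Het and 1872, 650.1 and 626 in KO, with Het replicate 2 and KO replicate 1 above the other samples. Dnajc3 was at 449, 402 and 414 in WT, 535, 409 and 403 in Het and 472, 440.2 and 470.1 in KO, Dnajb9 at 289 to 549.7, Dnajc10 at 274 to 364, Dnajc1 at 84.7 to 185 and Hspa13 at 50.05 to 114, and Dnajb11 is described with the genes of wide spread.

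The 9 mitochondrial chaperones (Hspa9, Hspd1, Hspe1, Dnaja3, Dnajc11, Dnajc15, Dnajc19, Dnajc28 and Dnajc30) had a median of 0.13, with 5 above 0 and 4 below. WT replicate 1 had a median deviation of -0.63 in this list, against 0.36 and 0.24 in the other WT samples. The Het and KO samples had -0.04 to 0.39. Low values in WT replicate 1 were not confined to this list. Of all 14223 genes tested, 3775 fell more than a fixed log2 distance below their WT mean in WT replicate 1. The count was 1097 and 943 in WT replicates 2 and 3, 3913 in Het replicate 1 and 3593 in KO replicate 2. It was 1376 to 2480 in the other Het and KO samples. Hspa9 (mortalin) was at 555, 1106 and 1039 in WT, 990.2, 896 and 933 in Het and 1019, 867 and 943 in KO, and Dnaja3 (TID1) at 18.6, 122 and 126 in WT, 117, 127 and 141 in Het and 97.1, 92.9 and 96.5 in KO. For both genes WT replicate 1 was the lowest of the 9. Without it the list median in KO against WT was -0.28, with 8 of the 9 genes below 0.

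The CCT ring, represented by Cct2, Cct3, Cct4, Cct5, Cct6a, Cct6b, Cct7 and Cct8, had a median of -0.07 in KO against WT, with 3 genes above 0 and 5 below. By sample its median deviation ran from -0.18 to 0.09. Cct3 was at 2116, 2012 and 1591 in WT, 1886, 1690.1 and 1690.0 in Het and 1872, 1713 and 1768 in KO, and Cct8 at 1377, 1307 and 1134 in WT, 1441, 1107 and 1038 in Het and 1303, 1173 and 1171 in KO, with the 3 genotypes overlapping. Cct7 and Cct6b were the subunits with no overlap between KO and WT, and whether they differed from the other subunits was not tested. The 3 HSP110 genes Hspa4, Hspa4l and Hsph1 were all below 0 (-0.22, -0.32 and -2.09). Of the 5 vesicle J proteins, Dnajc5b alone had no overlap downwards and Dnajc13 alone upwards, and Dnajc5, Dnajc5g and Dnajc6 lay between -0.05 and 0.07.

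**Figure D3:**
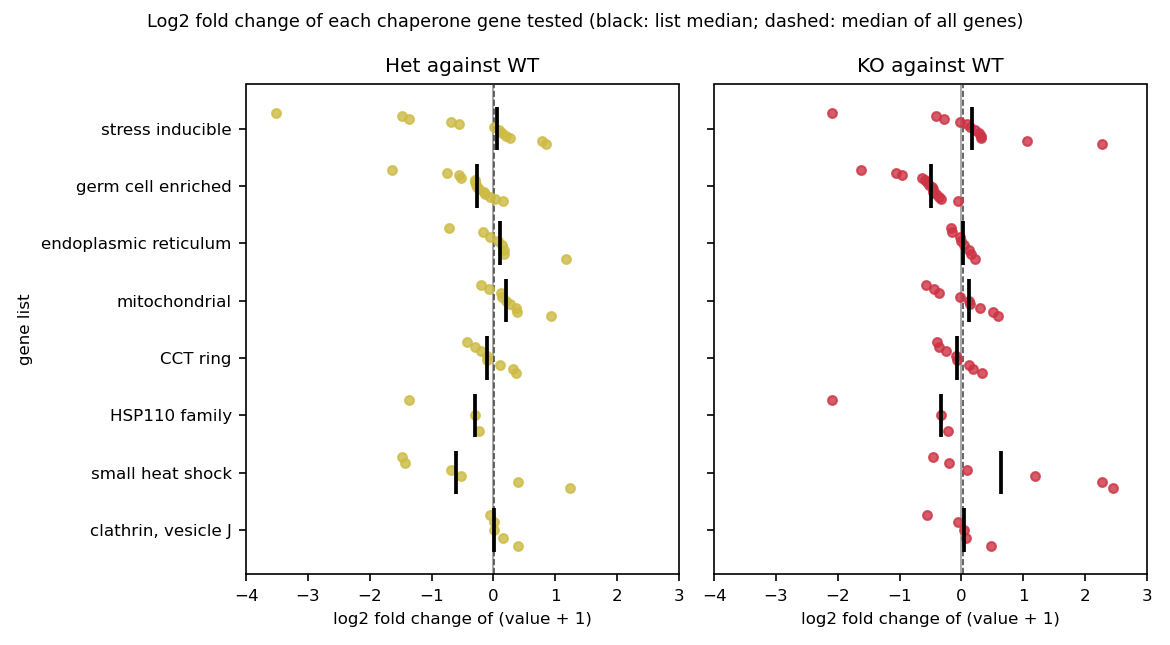
Log2 fold change of (value + 1) for each tested chaperone gene (points) by list, for Het against WT and KO against WT, with list medians as black bars and the median of all genes as a dashed line; the lists overlap in a few genes. All 14 germ cell enriched genes lie below 0 in KO against WT with a median of -0.49, against a median of 0.02 over all genes (-0.04 over all genes with a mean of at least 50).

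In the Het testes, 0 of 75 chaperone genes were called against WT by limma, as were 0 of all 14216 genes tested (0%), 0 chaperone genes with edgeR and 0 with DESeq2. This comparison uses the same WT samples as KO against WT. At an unadjusted limma p under 0.05 there were 2 chaperone genes (2.67%), 1 in each direction, against 3.34% of all genes (1.46% higher and 1.89% lower). There was 1 with edgeR (2.93% of all genes) and 1 with DESeq2 (2.91%), which called 0.218% of all genes and 0 chaperone genes. No overlap was seen below WT for 11 genes (14.7%, against 6.49% of all genes) and above for 2 genes (2.67%, against 6.76%). The 11 were Cct6b, Cct8l1, Dnajb1, Dnajb2, Dnajb3, Dnajb6, Dnajc18, Hspa4, Hspa4l, Hspa5 and Hspb9. Of the 75 genes, 34 were above 0 and 41 below (50.5% of all genes were above), with a median of -0.10 against 0.01 over all genes. Among genes with a mean of at least 50, the median was -0.10 for 63 chaperone genes and -0.05 for all genes. The germ cell enriched list had 12 genes below 0 and 2 above with a median of -0.27, and the stress-inducible list had 7 above and 5 below with a median of 0.06. The stress-inducible median turned to -0.33 without Het replicate 1, -0.27 without WT replicate 1 and -0.09 without Het replicate 2, and was 0.30 without Het replicate 3, so it gave no direction. The germ cell median was -0.17 without Het replicate 1 and -0.16 without WT replicate 1.

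The 2 genes were Dnajb5 and Dnajb1. Dnajb5, a J protein close to DNAJB1 (ENSMUSG00000036052, chr4:42949814-42959425), was at 3.71, 15.4 and 17.4 in WT, 38.7, 30.7 and 26.5 in Het and 20.6, 10.6 and 18.8 in KO. The Het samples lay above all WT and all KO samples, at low counts, with a log2 fold change against WT of 1.53 (SE 0.60, limma, adjusted p = 0.779). WT replicate 1 was at the limit of detection for this gene, and the log2 fold change was 0.91 without that sample. Dnajb1, the stress-inducible J partner of HSP70 (ENSMUSG00000005483, chr8:83608193-83612653), was at 703, 729 and 629.5 in WT, 17.01, 626 and 17.99 in Het and 599.5, 514 and 576 in KO. Het replicates 1 and 3 stood far below the other 7 samples, which lay between 514 and 729, and Het replicate 2 was just below the WT samples, which gave -3.52 (SE 1.38, limma, adjusted p = 0.779). Without Het replicate 2 Dnajb1 was called, at -5.22 (limma adjusted p = 0.0162), and the number of chaperone genes at an unadjusted p under 0.05 rose to 7, while without Het replicate 1 or Het replicate 3 it was 0. Hsph1 was low in the same Het replicates 1 and 3.

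Between KO and Het, 0 of 75 chaperone genes were called by limma, edgeR or DESeq2, against 8 of 14343 genes (0.0558%) by limma, 0.0349% by edgeR and 0.265% by DESeq2. This comparison uses the same Het and KO samples as the others. At an unadjusted limma p under 0.05 there were 6 chaperone genes (8.0%), 1 higher and 5 lower in KO, against 3.56% of all genes (1.74% higher and 1.82% lower). There were 5 by edgeR (3.26% of all genes) and 3 by DESeq2 (2.92%), and the limma count fell to 2 without KO replicate 2 and to 3 without KO replicate 1 or KO replicate 3. The lowest p belonged to Dnajc5b, the testis cysteine string protein (ENSMUSG00000027606, chr3:19508595-19610862), at 894, 1392 and 1542 in WT, 1189, 1453 and 1565 in Het and 855, 857 and 819.5 in KO. The KO samples were nearly equal and below every Het and every WT sample (KO against Het -0.72, SE 0.15, limma, adjusted p = 0.9). DESeq2 gave it an adjusted p of 0.0254 at a fold change under the cutoff. Its 3′ end overlaps 1700064H15Rik on the other strand.

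Dnajc14, a J protein of the endoplasmic reticulum membrane (ENSMUSG00000025354, chr10:128804062-128819446), was the gene higher in KO, at 318, 329 and 403 in WT, 213, 337 and 162 in Het and 466, 433 and 406 in KO. Each KO sample lay above each Het and each WT sample (KO against Het 0.94, SE 0.28, limma adjusted p = 0.973), and its 3′ end lies opposite Ormdl2. The other 4 were Dnajb5, described above, Dnajc30, a mitochondrial J protein tied to respiratory complex I, at 124, 67.5 and 83.04 in WT, 67.1, 132 and 121 in Het and 60.1, 60.9 and 57.2 in KO, Dnaja3 at 92.9 to 97.1 in KO and 117 to 141 in Het, and Hspa1l. Each of the 4 had its KO samples below its Het samples. On the other strand, Bud23 overlaps the 3′ end of Dnajc30 and Gm10501 that of Hspa1l. No overlap downwards was seen for 6 genes (8.0%, against 4.9% of all genes) and upwards for 1 (1.33%, against 5.12%). The 75 genes had a median of -0.05, with 34 above 0 (45.3%, against 49.7% of all genes), and the germ cell enriched list had 11 genes below 0 and 3 above with a median of -0.20. Without KO replicate 2 this list had 7 below and 7 above with a median of 0.0090, and the median ran to -0.32 without Het replicate 1, so its direction here rests on KO replicate 2.

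Several chaperone genes had a wide spread within a genotype. Of the 69 chaperone genes whose mean reached 20, 9 differed by more than 8-fold within at least 1 genotype (13.0%), against 15.3% of 12015 genes in all that reached this mean, so the share was near that of all genes. The median of the widest within-genotype ratio was 1.95 for the chaperones and 2.102 for all genes. The 9, in order of the ratio, were Hspb1, Dnajb11, Hspa8, Hspb7, Hspb6, Dnajb1, Dnajc17, Hspa2 and Hspb11.

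Of the 9, 4 have Hspb symbols, the family of the small heat shock proteins, which keep unfolded proteins from clumping. The list of small heat shock proteins was taken by the Hspb symbol, so it includes Hspb11, the intraflagellar transport protein IFT25. Of the 6 genes tested on this list, 4 were above 0 and 2 below in KO against WT, with a median log2 fold change of 0.64. This median was 0.16 without WT replicate 1, 1.36 without KO replicate 1 and 1.74 over the 4 whose mean reached 50. In Het against WT 2 were above and 4 below, with a median of -0.61, which was -0.06 over the 4 whose mean reached 50, -1.04 without WT replicate 1 and -0.37 without WT replicate 3. In KO against Het 5 were above and 1 below, with a median of 1.40, which was 0.48 without Het replicate 1, 0.71 with a pseudocount of 5 and 0.60 with edgeR or DESeq2. Hspb1 (HSP25) was at 2.48, 213 and 192 in WT, 27.4, 231 and 4.23 in Het and 194, 369 and 228 in KO. It was near the limit of detection in WT replicate 1 and Het replicate 3 and at 192 to 369 in 6 other samples, with Het replicate 1 between. Hspa8, the constitutive HSP70 (ENSMUSG00000015656, chr9:40800984-40810087), was at 14.9, 341 and 278 in WT, 497, 299 and 9.52 in Het and 12.02, 531 and 342 in KO, with WT replicate 1, Het replicate 3 and KO replicate 1 at 9.52 to 14.9 and the other 6 samples at 278 or more. Each genotype held a low sample. Dnajb11, an ER partner of BiP, was at 3.71, 274 and 135 in WT, 147, 157 and 86.8 in Het and 7.73, 246 and 111 in KO, low in WT replicate 1 and KO replicate 1. Its 3′ end lies opposite Gm30505 on the other strand.

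Hspb6 (HSP20, known from muscle) was at 276, 5.79 and 7.72 in WT, 26.5, 7.45 and 162 in Het and 109, 191 and 128 in KO, with WT replicates 2 and 3 and Het replicate 2 at 5.79 to 7.72. Without WT replicate 1 it was called in KO against WT at 4.18 (limma adjusted p = 0.0140), while with all 6 samples the difference was 2.46 (SE 1.41, limma adjusted p = 0.632). The 3′ end of Hspb6 lies opposite Lin37 on the other strand. Hspb7 was at 54.5, 18.3 and 29.9 in WT, 0, 38.2 and 42.3 in Het and 20.6, 29.99 and 31.3 in KO, and Dnajc17, a nuclear J protein with an RNA-binding domain, was at 63.1, 30.9 and 32.8 in WT, 0, 28.9 and 32.8 in Het and 27.5, 0 and 16.1 in KO. A 0 was counted for Hspb7 in Het replicate 1 and for Dnajc17 in Het replicate 1 and KO replicate 2. Hspb11 (IFT25, a part of the intraflagellar transport machinery) was at 16.1, 157 and 154 in WT, 221, 148 and 167 in Het and 186, 173 and 152 in KO, low in WT replicate 1 alone. Hspb8, another small heat shock protein, was at 0, 22.2 and 17.4 in WT, 0, 18.6 and 0 in Het and 0, 22.3 and 21.4 in KO, with a 0 in at least 1 sample of each genotype.

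**Figure D4:**
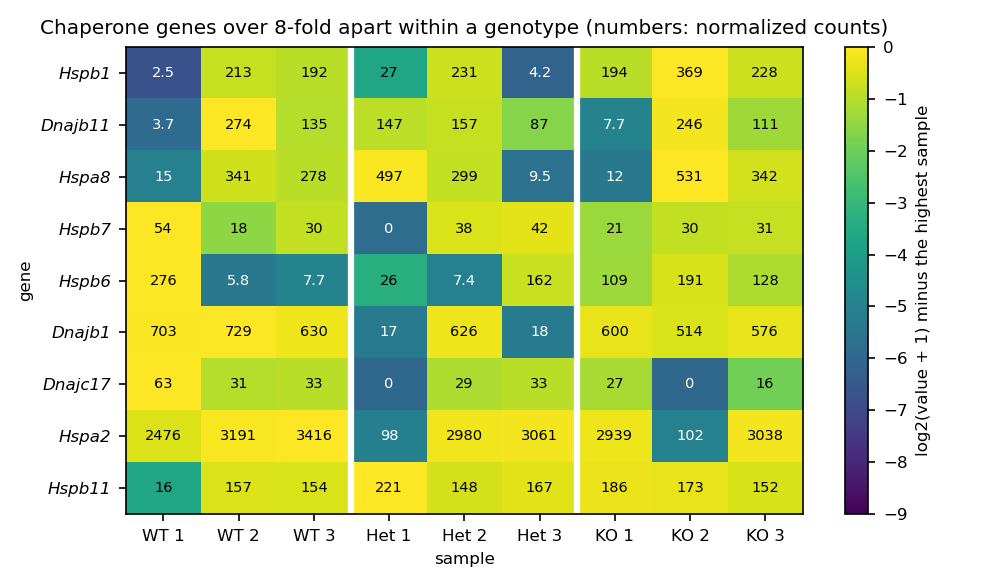
Normalized counts (numbers in the cells) of the 9 chaperone genes that differ by over 8-fold within a genotype, in the 9 samples (columns), with the colour giving the log2 distance of (value + 1) from the highest sample of the gene. The low samples differ from gene to gene: Hspa2 is low in Het 1 and KO 2, Hspa8 in WT 1, Het 3 and KO 1, and Dnajb1 in Het 1 and Het 3.

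The low values did not fall on a single library. Counting values under an eighth of the highest of the genotype, WT replicate 1 had 4 of the 9 genes, Het replicate 1 had 5, Het replicate 3 had 3, KO replicates 1 and 2 had 2 each, and KO replicate 3 had 0. Some of these genes have closely related copies. Of the 50-base stretches in the last 300 bases of annotated transcripts, 73.7% of those of Hspa8 also occur in other annotated genes (11 in number), as do 19.0% for Hspb1 and 15.5% for Dnajc17. Shared stretches were present for 3 of the 9 genes of wide spread and for 11 of the other 60, and a gene on the other strand overlapped the 3′ end of 2 of the 9 and 15 of the 60. Over all 78 genes such an overlap was present for 19, and not each of these is marked where its values are given. Outside the 9, the shared part was 52.3% for Dnaja1, 43.8% for Hspe1, 39.2% for Hspd1 and 37.6% for Hsp90aa1, so the counts of these genes are uncertain. The part of shared sequence or of overlapping genes in the spread was not tested.

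A fixed list of 59 partners outside the symbols used here, 55 of them tested, had 0 called by limma in each comparison. It holds co-chaperones, folding enzymes, heat shock factors and proteases. It also holds Tcp1, Trap1 and Cryab, which belong to the chaperone families under other symbols. At an unadjusted limma p under 0.05, KO against WT had 4 higher (Ahsa2, Pdcl3, Pdia4 and Txndc9) and 4 lower (Calr3, Clpb, Fkbp4 and Sil1), which is beside 8.07% of all genes, with a list median of -0.13. Fkbp4, an HSP90 co-chaperone that male mice need for fertility, had a mean of 2461 ± 129.6 in WT and 1219 ± 172 in KO (SD, n = 3, log2 fold change -1.02, SE 0.17, limma adjusted p = 0.340), with each KO sample below each WT sample. Calr3, the calreticulin of sperm, had means of 416 ± 434 and 60.4 ± 27.5 (log2 fold change -2.37, SE 0.76, limma adjusted p = 0.610), and Clpb, a mitochondrial disaggregase, had 2418 ± 1265 and 428 ± 98.3 (-2.34, SE 0.49, limma adjusted p = 0.514). Both were also lower in each KO sample than in each WT sample, and their WT spread was wide. These examples, Fkbp4, Calr3 and Clpb, are all from the lower side. Over the 55 partners tested, each KO sample lay above each WT sample for 6 and below for 6, against 9.41% and 10.5% of all genes. At the same unadjusted limit Het against WT had 1 partner higher (Ahsa2) and 1 lower (Calr3), beside 3.34% of all genes, with a list median of -0.11. KO against Het had 2 higher (Pdia4 and Txndc9) and 0 lower, beside 3.56% of all genes, with a median of -0.04.

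The 22 chaperone genes on none of the lists, mostly J proteins, had 21 tested. In KO against WT, 7 of the 21 were above 0 and 14 below, with a median log2 fold change of -0.22 and a range from -2.38 for Dnajc17 to 0.84 for Dnajc24. In Het against WT, 7 were above and 14 below, with a median of -0.30 and a range from -2.03 for Dnajc17 to 1.53 for Dnajb5, and in KO against Het 8 were above and 13 below, from -0.93 for Dnajb5 to 0.94 for Dnajc14. The Dnajc17 values against WT each rest in part on a sample at 0, KO replicate 2 for KO and Het replicate 1 for Het. Dnaja2, a J partner of HSP70 in the cytosol, was at 332, 810.3 and 704 in WT, 894, 604 and 662 in Het and 820.3, 719.8 and 767 in KO, and Dnajc2, a ribosome-bound J protein, was at 1799, 1487 and 1409.7 in WT, 1264, 1634 and 957 in Het and 1965, 541 and 1234 in KO. The samples of the 3 genotypes overlapped for both genes.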

How the data were processed

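Testis RNA of 9 mice, 3 each of WT, Het and KO, was sequenced by the authors as QuantSeq 3′ libraries with reads of 50 bases. According to their methods and the submitters' processing notes, reads were trimmed with Trim Galore 0.4.5, aligned to GRCm38 with HISAT2 2.1, assembled and counted with StringTie 1.3.3, and pseudogenes were removed. The deposited signal values are gene counts divided by a DESeq2 size factor per sample, and in each sample 100% of nonzero values were whole multiples of a single step (tolerance 0.01 count), so whole counts were recovered. StringTie derives its counts from coverage, so they stand for reads only approximately, and the use of strand is not given in the sources used here.

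The chaperone genes were taken by symbol with no use of their values, but this set and all gene lists were chosen with earlier results of these data known. Each pair of genotypes was compared with limma 3.58.1 (eBayes with a trend) in R 4.3.3 on log2(value + 1), which understates fold changes of low genes, over all genes for which 3 or more of the 6 samples reached a value of 10, with Benjamini-Hochberg adjustment over all of them. The comparisons share samples. Genes called pass the cutoffs of the study, a log2 fold change beyond 1.5 in either direction at an adjusted p below 0.05. Alternatives were pseudocounts of 0.5 and 5, no filter, a mean of at least 50, TMM factors, a joint fit of all 9 samples, a replicate block, each sample left out in turn, no fold change cutoff, and, on the recovered counts, edgeR 4.0.16 and DESeq2 1.42.0. The counts at an unadjusted p and the germ cell list were put through alternatives after seeing the data. The fits were tested on simulated data.

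Named with a test were up to 10 chaperone genes per comparison with an unadjusted limma p under 0.05, in order of p. Named with levels were the 12 genes with the highest mean, the 6 with the widest ratio of (value + 1) within a genotype among those with a mean of at least 20, and the genes of the lists. Dnajc17, Hspa2 and Hspb11, next in that ratio, and single genes shown as examples were chosen after their values were seen. Gene positions and 3′ ends are those of GENCODE M21 and promoter windows those of RefSeq, both on GRCm38. Dnajc25, a list gene, is not analysed here, and neither are protein sequences. Figures were drawn with matplotlib 3.10.9.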

Additional observations from a re-analysis of the deposited data

How the results depend on the processing

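Calls of single chaperone genes depended on the test and on 1 sample, and medians near 0 changed sign when 1 sample was left out. For KO against WT, the count called was 0 with limma and 1 (Hsph1) with DESeq2, and 0 to 1 with a sample left out (Hspb6 without WT replicate 1). For Het against WT and for KO against Het it was 0 to 1 with a sample left out, which was Dnajb1 without Het replicate 2 in both (log2 fold changes of -5.22 and 4.93, limma adjusted p = 0.0162 and 0.00631). The median log2 fold change of the chaperone genes ran from -0.18 to -0.11 for KO against WT, from -0.18 to -0.0452 for Het against WT and from -0.11 to 0.0435 for KO against Het with a sample left out, above 0 without KO replicate 2 against -0.05 with all samples, and the median for Het against WT was -0.0638 with no filter on low values. The number of chaperone genes at an unadjusted p under 0.05, with a sample left out, ran from 2 to 6 for KO against WT (5 with all samples), from 0 to 7 for Het against WT (2 with all samples) and from 2 to 5 for KO against Het (6 with all samples). For KO against WT it was 3 with edgeR, 3 with no filter on low values and 8 in the joint fit of all 9 samples. For Het against WT it was 1 with edgeR, with DESeq2 and at a mean of at least 50, and 6 in the joint fit, and for KO against Het it was 3 with DESeq2. The mitochondrial median of KO against WT went from 0.13 to -0.28 without WT replicate 1, and the germ cell median of KO against Het from -0.20 to 0.0090 without KO replicate 2. The causes were not tested. For the other alternatives, counts called and the medians of all chaperone genes and of the germ cell list stayed within 1.5 times or within the spread between samples.

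Replicate numbers gave no clear pairing of the samples (correlations of same-numbered deviations from -0.14 to 0.21). Samples correlated best with their own number in 0 of 6 cases for KO against WT, 4 of 6 for Het against WT and 2 of 6 for KO against Het. With 3 samples per group this check cannot exclude a pairing. With the replicate number as a block, 0 chaperone genes were called in each comparison, the number of all genes called in KO against WT went from 5 to 0, and the chaperone genes at an unadjusted p under 0.05 from 5 to 2 for KO against WT, from 2 to 1 for Het against WT and from 6 to 5 for KO against Het. The medians stayed at -0.12, -0.10 and -0.05, as the block leaves group means in place. Hspb3 had 0 counts in all 9 samples and Hspb2 and Dnajc22 at most 10 and 9, so no difference between genotypes was detectable for them at this depth.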
